A study of Homo sapiens with 6 samples.

Results

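The CDK inhibitor genes are 8 genes of the human genome whose products restrain cyclin-dependent kinases (CDKs), the enzymes that drive the cell cycle. They were found by symbol among the 58735 genes of the expression table: CDKN1A, CDKN1B and CDKN1C of the CIP/KIP family, CDKN2A, CDKN2B, CDKN2C and CDKN2D of the INK4 family, and CDKN3. RNA sequencing had been done on 3 libraries of dacomitinib-treated HaCaT cells and 3 libraries of control HaCaT cells. Dacomitinib, which binds EGFR and its sister receptors HER2 and HER4 covalently and blocks their kinase activity, was given for 48 h to cells at 70% confluence. HaCaT is a spontaneously immortalised human keratinocyte line, and both groups carry the label wild type. The series' text attaches 0.1% DMSO to the treated cells, and neither the drug's dose nor the controls' vehicle is given in the sources used here, so drug and vehicle cannot be told apart.

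The 3 columns taken as dacomitinib carry a letter that no label uses and were assigned by elimination, so every direction below rests on that assignment. No label says whether libraries came from separate cultures, and the p-values therefore measure a spread that may be technical. Libraries held 15171200 to 16179273 fragments on genes with dacomitinib, against 14960650 to 16166582 in controls. Of the 14 keratinocyte markers, all passed the expression limit, with summed levels of 1358 to 1563 FPKM with dacomitinib and 1601 to 1665 FPKM in controls. Of 23 markers of fibroblasts, endothelial cells, melanocytes and immune cells, 20 fell short of that limit. Summed levels differed between the groups, from 10.6 to 13.5 FPKM with dacomitinib against 1.81 to 2.22 FPKM in controls for the 5 endothelial markers, and from 2.28 to 3.63 FPKM with dacomitinib against 0.853 to 1.24 FPKM in controls for the 8 fibroblast markers. The 3 that reached it were CDH5, COL3A1 and MITF, of which CDH5 and COL3A1 rose. KDR, COL1A2, THY1 and TYR were listed at 0 in every library, and VIM had 0 fragments with dacomitinib and 3 in controls. Mitochondrial genes took 4.71 ± 0.162% of fragments with dacomitinib and 7.83 ± 0.389% in controls (SD, n = 3). The part of either in the results below was not tested.

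The INK4 proteins bind CDK4 and CDK6 and keep D-type cyclins from activating them, so that the retinoblastoma protein stays unphosphorylated and E2F genes stay silent. The CIP/KIP proteins bind complexes of CDK2 with cyclins E and A, and at low levels they can also help cyclin D complexes to assemble. CDKN3 differs from both families, since it encodes a phosphatase that removes the activating phosphate of CDK2 and CDK1. In epidermis the inhibitors are known for the withdrawal of keratinocytes from the cycle as they leave the basal layer, and growth factor signalling through EGFR and ERK works the other way by driving cyclin D1.

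Promoter windows of RefSeq (GRCh38.p14) were matched for 7 of the 8 genes, all but CDKN1C, in 10 windows. The upstream 250 bases are shown for the 2 genes that rose and the 3 that fell, so that the letters in front of the genes that moved in opposite directions can be compared. Capitals mark any of 5 motifs on either strand: CHR (TTTGAA), the CCAAT box (CCAAT), the GC box bound by SP1 (GGGCGG), FOXO (TGTTTAC) and E2F (TTTCCCGC, TTTGGCGC, TTTCGCGC or TTTGCCGC). For CDKN2C, 2 of its 3 windows are shown, since the first held none of these letters. Each line runs 5′ to 3′ on the gene's strand and ends at the base before the start.
CDKN2B promoter, chr9:22009306-22009555, minus strand: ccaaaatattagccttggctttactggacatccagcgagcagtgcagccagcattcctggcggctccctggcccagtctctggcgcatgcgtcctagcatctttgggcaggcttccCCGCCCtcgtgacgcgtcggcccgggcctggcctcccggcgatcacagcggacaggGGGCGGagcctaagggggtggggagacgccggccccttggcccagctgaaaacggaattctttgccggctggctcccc
CDKN1A promoter, chr6:36678464-36678713, plus strand: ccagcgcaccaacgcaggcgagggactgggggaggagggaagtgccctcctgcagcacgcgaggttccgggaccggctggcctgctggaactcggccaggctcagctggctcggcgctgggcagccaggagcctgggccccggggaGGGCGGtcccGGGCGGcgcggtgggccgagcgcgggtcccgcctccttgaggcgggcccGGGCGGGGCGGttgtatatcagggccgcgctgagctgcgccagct
CDKN3 promoter, chr14:54396757-54397006, plus strand: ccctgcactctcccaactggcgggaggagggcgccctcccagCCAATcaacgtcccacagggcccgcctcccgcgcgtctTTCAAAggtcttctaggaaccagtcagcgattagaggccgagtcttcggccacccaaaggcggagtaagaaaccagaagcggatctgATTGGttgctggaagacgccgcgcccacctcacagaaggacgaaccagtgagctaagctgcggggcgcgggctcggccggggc
CDKN2C promoter, window 2, chr1:50968456-50968705, plus strand: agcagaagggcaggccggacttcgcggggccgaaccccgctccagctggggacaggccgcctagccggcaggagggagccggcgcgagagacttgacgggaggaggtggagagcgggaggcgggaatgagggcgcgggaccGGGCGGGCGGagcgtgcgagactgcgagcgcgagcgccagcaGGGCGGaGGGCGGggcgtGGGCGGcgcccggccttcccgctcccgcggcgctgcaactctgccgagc
CDKN2C promoter, window 3, chr1:50969995-50970244, plus strand: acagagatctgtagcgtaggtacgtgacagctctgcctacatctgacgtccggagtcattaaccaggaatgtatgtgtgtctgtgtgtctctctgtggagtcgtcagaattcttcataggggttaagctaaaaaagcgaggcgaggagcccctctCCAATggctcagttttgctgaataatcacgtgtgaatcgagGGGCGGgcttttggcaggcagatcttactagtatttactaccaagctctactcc
CDKN2D promoter, chr19:10568980-10569229, minus strand: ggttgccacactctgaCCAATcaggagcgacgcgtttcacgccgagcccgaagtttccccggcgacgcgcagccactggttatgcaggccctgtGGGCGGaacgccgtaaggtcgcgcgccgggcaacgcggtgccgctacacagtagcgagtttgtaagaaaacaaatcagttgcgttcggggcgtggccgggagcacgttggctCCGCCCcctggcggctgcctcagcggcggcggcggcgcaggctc

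The CDKN3 window was the 1 of the 10 with CHR letters, the element that DREAM complexes bind in many mitotic genes, and they began 170 bases before the start. It also held CCAAT letters at 208 and 83 bases before the start. CHR letters were present in 13.3% of all 35116 windows of the same length, and CCAAT letters in 32.0%, so a match by itself is common. CCAAT letters stood in 4 of the 10 windows. Besides that of CDKN3 these were window 3 of CDKN2C, 95 bases before the start, and that of CDKN2D, 234 bases before it. The remaining window was that of CDKN1B, with copies at 174 and 50 bases before the start. It is not shown, since CDKN1B did not pass the test described below. GC boxes were in 7 of the 10 windows and in 42.6% of all windows. CDKN1A had 4 of them and CDKN2B had 2, while window 2 of CDKN2C had 5. In CDKN1A the copies at 45 and 40 bases before the start overlap, as do those at 109 and 105 bases in CDKN2C. E2F and FOXO letters were found in 0 of the 10 windows, against 2.79% and 2.98% of all windows. No motif shown here was tested for a role.

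Of the 8 genes, 7 reached the expression limit, a mean of at least 1 FPKM over the 6 libraries. FPKM is the number of fragments divided by gene length and by library size, which puts different genes on a common scale. The length is given per gene and need not match the transcripts expressed, so comparisons of level between genes are approximate. With dacomitinib CDKN2B and CDKN1A rose, CDKN3, CDKN2C and CDKN2D fell, and CDKN2A and CDKN1B did not pass the test. Thus 5 of 7 differed, 2 higher and 3 lower, where 60.2% of all 13748 tested genes differed, 25.4% higher and 34.8% lower. The share is near that background, so the count by itself sets these genes apart from no others, and the results lie in the sizes and opposite directions of the single genes. The test was limma on log2(FPKM + 1), with Benjamini-Hochberg adjustment over all tested genes and a threshold of 0.05. On that scale the median gene differed by -0.06. With 3 libraries a side, exact permutation reaches no p under 0.1 and was not used for single genes. With values rescaled to TPM, an equal sum in every library, 4 of the 7 were higher and 3 lower, where 61.8% of all tested genes differed, 42.0% higher and 19.8% lower. The libraries of the groups did not overlap for 6 of the 7 genes, 3 higher and 3 lower, and for 67.1% of all tested genes.

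**Figure D1:**
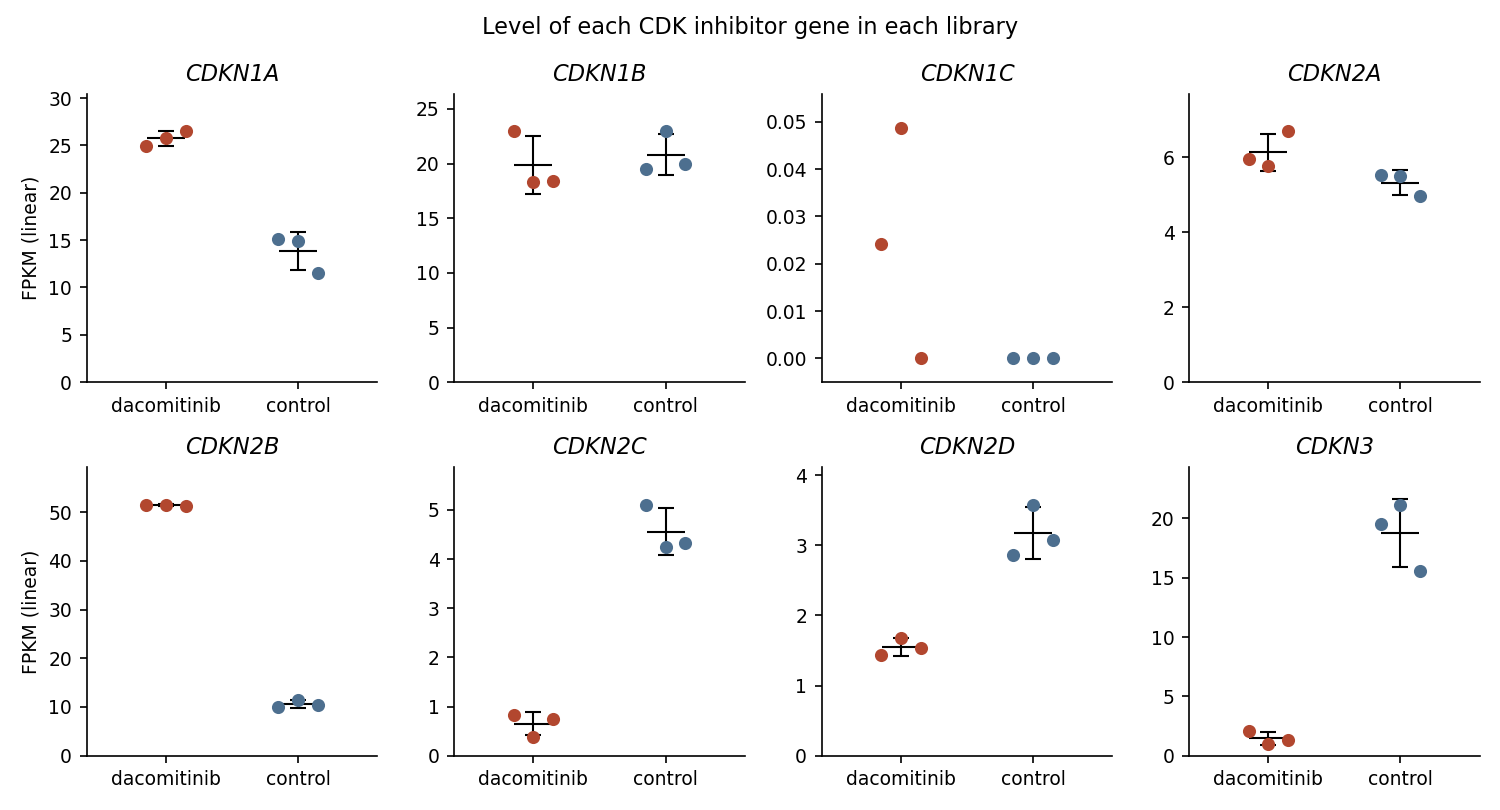
FPKM of each of the 8 genes in each library, dacomitinib left and control right, on linear axes with a range of its own for each gene. Points are libraries, and horizontal lines with bars are the mean and SD of 3 libraries (none for CDKN1C, which is at or near 0). CDKN2B and CDKN1A lie higher and CDKN3, CDKN2C and CDKN2D lie lower in all 3 dacomitinib libraries, while CDKN1B overlaps.

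In the CIP/KIP family, CDKN1A rose. It encodes p21, which binds CDK2 complexes and the replication clamp PCNA (ENSG00000124762, chromosome 6, 36676460 to 36687339, plus strand, GRCh38). Its levels were 24.9, 25.8 and 26.5 FPKM with dacomitinib, against 15.1, 14.9 and 11.5 FPKM in controls. The treated libraries lay close together and all above the controls, of which the third was the lowest. The level was 1.86 times that of controls, a log2 difference of 0.86 (SE 0.10, adjusted p = 0.000431). Of the 13748 tested genes 1031 had a larger rise on the scale of log2(FPKM + 1). Without the third control library the difference was 0.74 (adjusted p = 0.000171).

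CDKN1B was close to its control level. It encodes p27, which is controlled largely by degradation of the protein, so its mRNA need not follow it (ENSG00000111276, chromosome 12, 12715058 to 12722371, plus strand). It had 23.0, 18.3 and 18.4 FPKM with dacomitinib, against 19.5, 23.0 and 19.99 FPKM in controls. In each group 1 library was near 23.0 FPKM and the other two were lower, and the groups overlapped. The log2 difference was -0.07, with a 95% interval from -0.31 to 0.18 (adjusted p = 0.612). With TPM the difference was 0.24 (adjusted p = 0.0477), which is a call, but TPM moved the median of all tested genes to 0.23. Relative to that median CDKN1B differed by 0.01 with TPM and by -0.01 as deposited.

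The third member of the family, CDKN1C, was hardly detected. It encodes p57, an imprinted gene of chromosome 11 (ENSG00000129757, 2883213 to 2885773, minus strand). There were 1, 2 and 0 fragments with dacomitinib, against 0 in each of the 3 controls. A count of 0 allows up to 3 fragments, or 0.0696 FPKM in the third dacomitinib library and 0.0785 to 0.0855 FPKM in the controls (counting error only). A difference between the groups was thus not detectable at this depth, and no fold is given.

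In the INK4 family, the 4 members went different ways. CDKN2B had the largest rise of the 8 genes. It encodes p15, an inhibitor of CDK4 and CDK6 known as a target of TGF-beta signalling in keratinocytes (ENSG00000147883, chromosome 9, 22002903 to 22009363, minus strand). Its levels were 51.5, 51.5 and 51.2 FPKM with dacomitinib, against 9.92, 11.4 and 10.3 FPKM in controls. The groups were far apart, and the level was 4.87 times that of controls. The log2 difference was 2.18 (SE 0.06, adjusted p = 9.61e-07). On this scale, log2(FPKM + 1), 49 of the 13748 tested genes had a larger rise, but it understates the change of low genes. The SD of the treated libraries, 0.164 FPKM, was below the 0.866 FPKM that counting 3467 to 3618 fragments gives by itself, so it understates the error of that mean.

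CDKN2A, the gene next to CDKN2B, had smaller differences. It encodes p16 and, from another first exon, the MDM2 inhibitor ARF (ENSG00000147889, chromosome 9, 21967753 to 21995301, minus strand). The RefSeq starts of its 2 promoter windows lie 20467 bases apart, and a gene-level value adds both products together. The levels were 5.94, 5.75 and 6.69 FPKM with dacomitinib, against 5.51, 5.50 and 4.95 FPKM in controls. All 3 treated libraries lay above the controls by a small margin, as 28.9% of all tested genes did. The log2 difference was 0.17, with a 95% interval from -0.0031 to 0.35 (adjusted p = 0.0817). The call depends on the scaling between libraries, as the difference was 0.50 with TPM (adjusted p = 0.00180), 0.25 with median ratio scaling (adjusted p = 0.0233) and 0.28 with quantile normalization (adjusted p = 0.0163).

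CDKN2C fell. It encodes p18, an INK4 protein that is itself an E2F target (ENSG00000123080, chromosome 1, 50960745 to 50974633, plus strand). It had 0.829, 0.382 and 0.745 FPKM with dacomitinib, against 5.11, 4.24 and 4.33 FPKM in controls. Every treated library was below 1 FPKM and every control above 4 FPKM. Controls were 6.996 times as high, from 110 fragments over the dacomitinib libraries and 668 over the controls. The log2 difference was -1.76 (SE 0.14, adjusted p = 7.05e-05). The pseudocount of 1 holds this value near 0, and with limma-voom on fragments recovered from the FPKM it was -2.85 (adjusted p = 4.11e-08).

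CDKN2D fell as well, and less. It encodes p19, the INK4 protein whose level is known to rise in S phase (ENSG00000129355, chromosome 19, 10566462 to 10569059, minus strand). It had 1.43, 1.68 and 1.53 FPKM with dacomitinib, against 2.87, 3.58 and 3.08 FPKM in controls. The groups did not overlap, as was so with lower treated libraries for 38.2% of all tested genes. Controls were 2.05 times as high. The log2 difference was -0.71 (SE 0.10, adjusted p = 0.000956), from 36 to 42 fragments per dacomitinib library and 61 to 83 per control library.

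CDKN3 had the largest fall of the 8 genes. The phosphatase it encodes, also called KAP, is known for a peak of its mRNA late in the cycle (ENSG00000100526, chromosome 14, 54396849 to 54420218, plus strand). It had 2.08, 0.985 and 1.35 FPKM with dacomitinib, against 19.5, 21.2 and 15.6 FPKM in controls. The first treated library was the highest of its group, yet far below the lowest control. Controls were 12.7 times as high, and the log2 difference was -3.01 (SE 0.18, adjusted p = 2.24e-05). Only 37 of the 13748 tested genes had a larger fall on the scale of log2(FPKM + 1), which understates the change of low genes. MKI67, a marker of cycling cells, had 5.32, 4.72 and 5.78 FPKM with dacomitinib, against 85.4, 84.3 and 91.7 FPKM in controls. In bulk RNA, fewer cycling cells and less of the mRNA in each cell cannot be told apart.

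**Figure D2:**
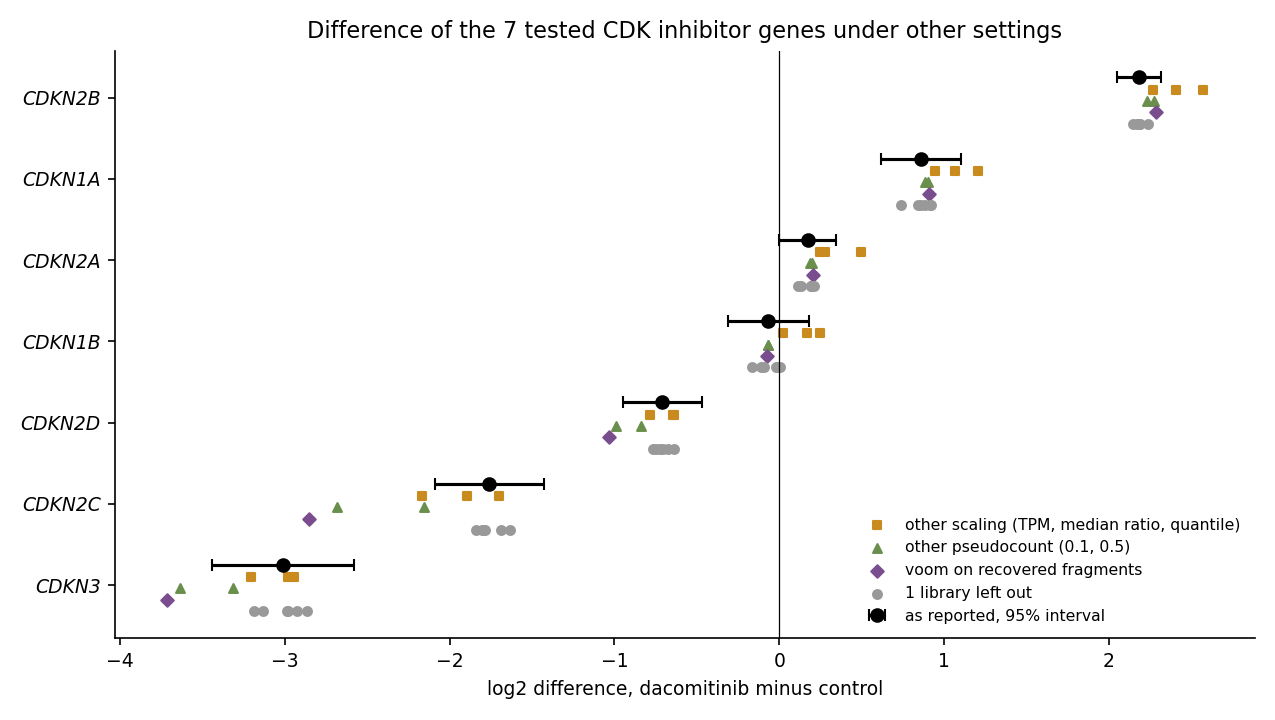
Log2 difference, dacomitinib minus control, of the 7 tested genes. Black points are the values as reported with 95% intervals, and the other marks are 3 other scalings, 2 other pseudocounts, voom and the 6 fits with 1 library left out (filters, other limma settings and the replicate block give the same estimates as the black points). CDKN2B and CDKN1A stay right of 0 and CDKN2D, CDKN2C and CDKN3 left of it, while CDKN1B lies on both sides.

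The order of the genes by level differed between the groups. With dacomitinib the means ran from CDKN2B at 51.4 ± 0.164 FPKM through CDKN1A at 25.7 ± 0.801, CDKN1B at 19.9 ± 2.66 and CDKN2A at 6.13 ± 0.497 to CDKN2D at 1.55 ± 0.128, CDKN3 at 1.47 ± 0.560 and CDKN2C at 0.652 ± 0.238 FPKM (SD, n = 3). Of these neighbours only CDKN2D and CDKN3 overlapped in range. In controls CDKN1B at 20.8 ± 1.87 FPKM and CDKN3 at 18.7 ± 2.88 FPKM led with overlapping ranges. They were followed by CDKN1A at 13.8 ± 2.04, CDKN2B at 10.6 ± 0.776, CDKN2A at 5.32 ± 0.322, CDKN2C at 4.56 ± 0.479 and CDKN2D at 3.17 ± 0.367 FPKM (SD, n = 3). The ranges of CDKN2A and CDKN2C overlapped in controls, and the other neighbours did not.

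Shares within a library do not depend on the scaling between libraries, and they are given as a description. CDKN2B made up 47.0, 49.3 and 48.1% of the summed FPKM of the 8 genes with dacomitinib, against 12.8, 13.6 and 14.8% in controls. CDKN3 made up 1.90, 0.943 and 1.26% with dacomitinib, against 25.2, 25.2 and 22.3% in controls. A gene with a large part in the controls had thus almost left the sum, and CDKN2B held nearly as much of it as all the others together. The 8 genes summed to 107 ± 2.64 FPKM with dacomitinib and 77.0 ± 7.05 FPKM in controls (SD, n = 3). The INK4 genes alone summed to 59.7 ± 0.437 FPKM with dacomitinib and 23.6 ± 1.04 FPKM in controls. Unlike the shares, these sums depend on the scaling between libraries.

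**Figure D3:**
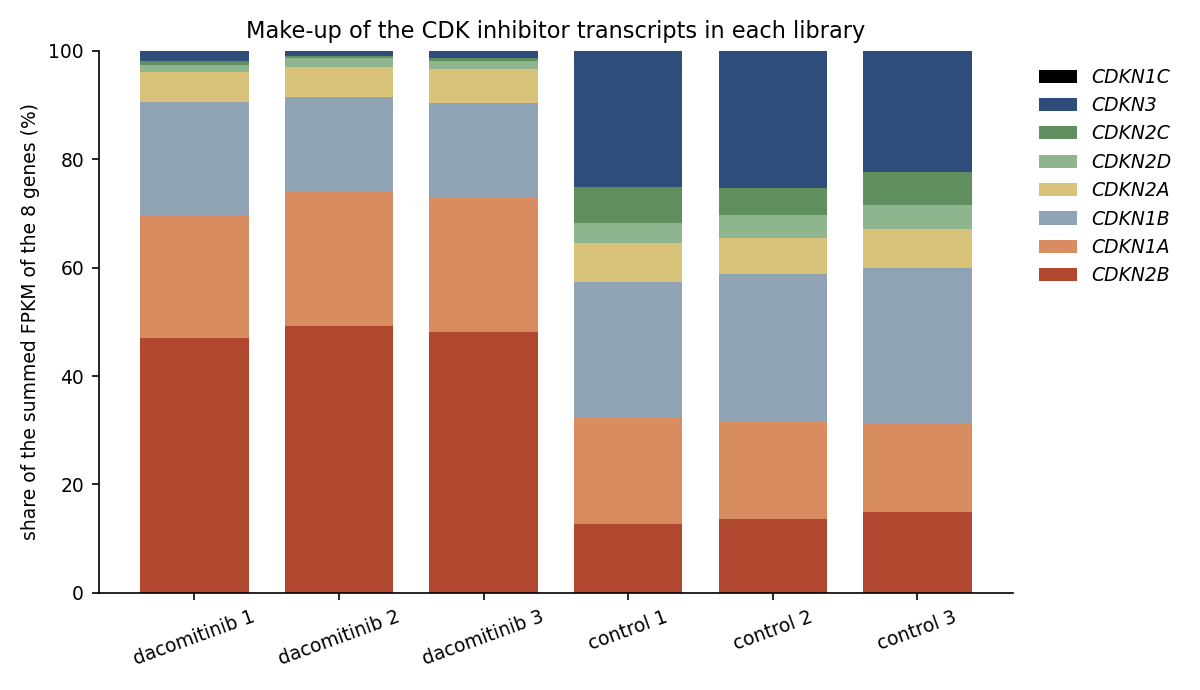
Share of each gene in the summed FPKM of the 8 CDK inhibitor genes, in percent, with 1 bar per library, dacomitinib left and control right. CDKN2B takes 47.0 to 49.3% of each dacomitinib bar and 12.8 to 14.8% of each control bar, and CDKN3 takes 0.943 to 1.90% of each dacomitinib bar and 22.3 to 25.2% of each control bar (CDKN1C is too small to see).

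Sums of inhibitor mRNA were set against those of the kinases they bind. The INK4 sum was 2.34, 2.22 and 2.26 times the summed FPKM of CDK4 and CDK6 with dacomitinib, against 0.487, 0.516 and 0.435 times in controls. CDKN2B made up most of that sum with dacomitinib, and CDKN2C and CDKN2D, which fell, were lower in it. In the denominator CDK4 fell to 10.8 ± 0.941 FPKM with dacomitinib, against 32.7 ± 2.09 FPKM in controls (adjusted p = 1.07e-05). CDK6 had 15.6 ± 1.42 FPKM with dacomitinib and 16.7 ± 0.838 FPKM in controls and did not pass (adjusted p = 0.286; SD, n = 3 each). The CIP/KIP sum was 4.11, 3.98 and 4.06 times that of CDK1 and CDK2 with dacomitinib, against 0.496, 0.530 and 0.482 times in controls. Most of that difference lay in the kinases, as CDK1 and CDK2 summed to 11.3 ± 0.345 FPKM with dacomitinib and 68.9 ± 3.19 FPKM in controls (SD, n = 3). The CIP/KIP sum was 45.7 ± 1.97 FPKM with dacomitinib and 34.6 ± 3.21 FPKM in controls. CDKN3 was at 0.451, 0.191 and 0.256 times the FPKM of CDK1 with dacomitinib, against 0.377, 0.393 and 0.338 times in controls, where the groups overlap. CDKN2B was 8.68, 8.96 and 7.66 times CDKN2A with dacomitinib, against 1.80, 2.08 and 2.09 times in controls. These are ratios of mRNA and were not tested.

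Most kinases and cyclins that the inhibitors act on fell. Of 15 measured genes of 16, 10 fell, 1 rose and 4 did not pass (with TPM 10 fell and 2 rose). The median log2 difference was -0.85. Among all tested genes 34.8% were lower and 25.4% higher, or 19.8% and 42% with TPM. Cyclins B1 and A2 (CCNB1 and CCNA2) had the largest falls, to 9.73 ± 0.467 and 5.49 ± 0.198 FPKM with dacomitinib, against 108 ± 4.51 and 64.6 ± 1.94 FPKM in controls. Both are also among the proliferation markers counted below. Cyclin D1 (CCND1), the main partner of CDK4, fell to 83.7 ± 2.47 FPKM with dacomitinib, against 151 ± 5.68 FPKM in controls. CDK7, the kinase that activates other CDKs, was the gene that rose, by 0.36 (SE 0.06, adjusted p = 0.00164). CCND1 is named here outside the rule for named genes.

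Genes that take the inhibitor proteins down fell in part. Of 14 genes for the turnover and export of p21 and p27, 11 fell, 0 rose and 3 did not pass. Their median was -0.34, but with TPM 6 fell and 2 rose. The shares of all tested genes were 34.8% lower and 25.4% higher, with a median of -0.06. With TPM those shares were 19.8% and 42%, and the median was 0.23 for all genes and -0.05 for this list. DTL, the substrate receptor for p21 in S phase, fell to 2.25 ± 0.152 FPKM with dacomitinib, against 19.1 ± 0.494 FPKM in controls. CKS1B, the cofactor that lets SKP2 bind p27, fell to 11.1 ± 0.523 FPKM with dacomitinib, against 48.1 ± 0.609 FPKM in controls. SKP2 itself, named outside the rule, fell to 12.1 ± 0.678 FPKM, against 31.1 ± 1.21 FPKM in controls. DTL, CKS1B and SKP2 were called lower with TPM, median ratio and quantile scaling too.

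Regulators of the inhibitors' transcription went both ways. Of 21 measured genes of 22, 8 rose, 5 fell and 8 did not pass, with a median of 0.05 (12 rose and 4 fell with TPM). These counts are read against the background of 25.4% higher and 34.8% lower among all tested genes, or 42.0% and 19.8% with TPM, and the share that differed is near it. FOXO4 and ETS1 had the largest rises, to 9.76 ± 0.559 and 20.7 ± 1.06 FPKM with dacomitinib, against 4.33 ± 0.418 and 9.90 ± 0.384 FPKM in controls. FOXO factors are known to induce CDKN1B, and ETS factors CDKN2A, neither of which passed the test as deposited. EGR1, an immediate early factor, and EZH2, the Polycomb methyltransferase that silences the INK4 genes in many cells, had the largest falls. EGR1 had 2.43 ± 0.0600 FPKM with dacomitinib and 10.2 ± 0.740 FPKM in controls, and EZH2 had 5.95 ± 0.294 FPKM with dacomitinib and 19.8 ± 0.824 FPKM in controls (SD, n = 3).

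RB and DREAM genes and proliferation markers were mostly lower. Of 15 measured RB and DREAM genes of 16, 14 fell and 1 rose, with a median of -0.65 (13 and 1 with TPM). By comparison 34.8% of all tested genes were lower and 25.4% higher, or 19.8% and 42% with TPM. MYBL2 and E2F1 had the largest falls, to 4.07 ± 0.627 and 1.54 ± 0.157 FPKM with dacomitinib, against 40.1 ± 4.30 and 14.4 ± 0.761 FPKM in controls. RBL2, the pocket protein of quiescent cells, was the gene that rose, to 17.7 ± 1.27 FPKM, against 12.1 ± 0.853 FPKM in controls. All 20 proliferation markers fell, with a median of -3.15, and with TPM as well. RRM2 and CDC20 had the largest falls, to 0.415 ± 0.0617 and 6.002 ± 0.346 FPKM with dacomitinib, against 20.7 ± 2.03 and 103.5 ± 6.48 FPKM in controls. On log2(FPKM + 1) the fall of CDKN3, at -3.01, was thus of the size of this list's median. Those of CDKN2C and CDKN2D were smaller, but this scale understates the fall of low genes. With voom the list's median was -3.42, against -3.71 for CDKN3, -2.85 for CDKN2C and -1.03 for CDKN2D.

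**Figure D4:**
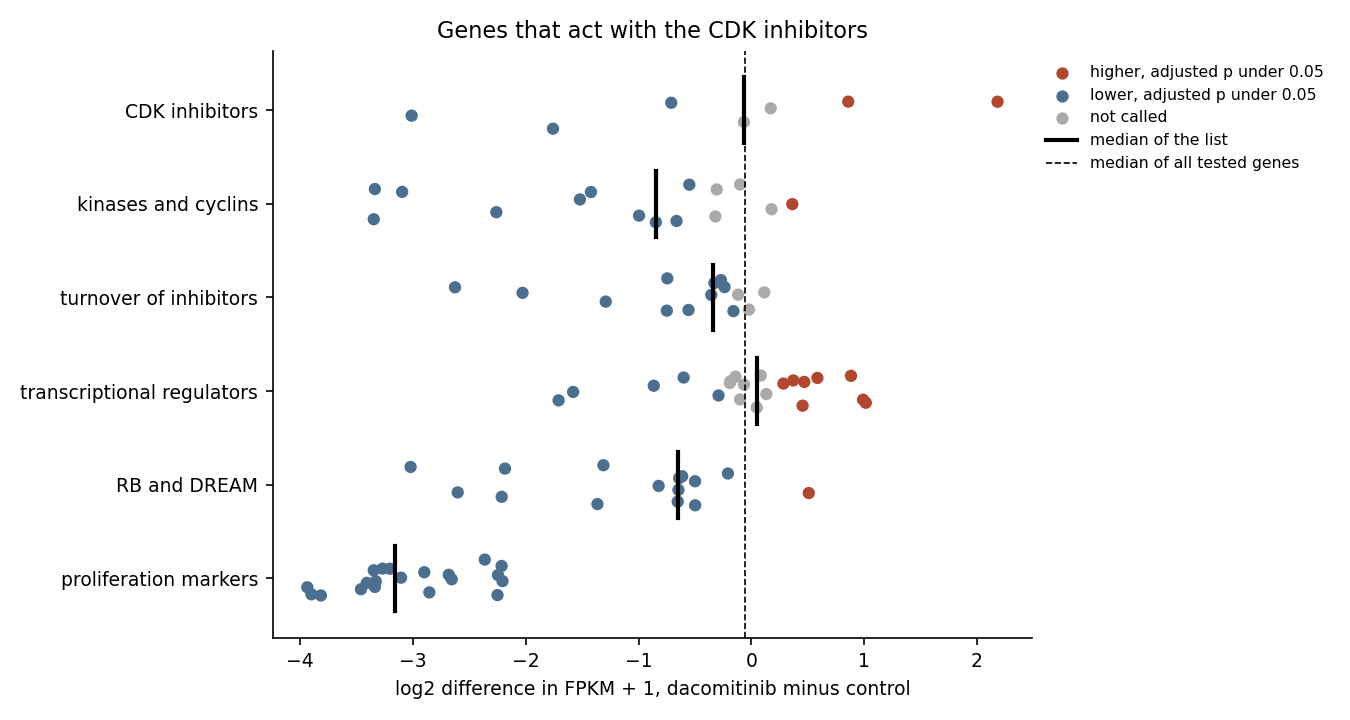
Log2 difference in FPKM + 1, dacomitinib minus control, of each tested gene in 6 lists (rows). Red points were higher and blue points lower at an adjusted p under 0.05, grey points were not called, solid bars are list medians and the dashed line is the median of all tested genes, -0.06. The proliferation markers all lie left of that line, and the CDK inhibitors lie on both sides.

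At the INK4 locus of chromosome 9, CDKN2B stood between CDKN2A, 7602 bases away, and DMRTA1, which was below the expression limit. MTAP, a methionine salvage enzyme on the other side of CDKN2A, had a log2 difference of -0.22 (adjusted p = 0.0327), a call that TPM ended (adjusted p = 0.738). The antisense gene CDKN2B-AS1 overlaps CDKN2B along its whole length and had 255 fragments over the dacomitinib libraries and 126 over the controls, where CDKN2B had 10583 over the dacomitinib libraries and 1902 over the controls. No source says that counting used strand, and overlap of the exons of this pair was not checked. How reads common to both genes were counted is therefore not known here. Nor is it known how reads that fit both of the similar genes CDKN2A and CDKN2B were assigned, though all recovered values were whole fragments. AL359922.1, which spans both genes on the other strand, was listed at 0 in every library.

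Elsewhere, FAF1 lies 482 bases from CDKN2C and KRI1 lies 425 bases from CDKN2D, and both fell with them, by 0.76 (adjusted p = 4.55e-05) and 0.61 (adjusted p = 0.000168) on the log2 scale. AP1M2, on the other side of CDKN2D, had a difference of -0.27 as deposited (adjusted p = 0.00308) and 0.04 with TPM. Next to CDKN3, CNIH1 had a difference of -0.14 as deposited (adjusted p = 0.0252) and 0.16 with TPM, and BMP4, 438088 bases away, rose by 0.52 (adjusted p = 0.0233; 0.39 and adjusted p = 0.0821 with quantile normalization). SRSF3, a splicing factor, fell by 1.17 next to CDKN1A, which rose. RAB44, on its other side, and DINOL, which overlaps it, had at most 10 fragments over a group. APOLD1, next to CDKN1B, had a difference of -0.37 (adjusted p = 0.0150; adjusted p = 0.208 with TPM), and GPR19 was below the limit. AC008115.3, inside CDKN1B on the same strand, had a difference of 0.12 (adjusted p = 0.639). The neighbours of CDKN1C and C1orf185 next to CDKN2C were below the limit.

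Genes most like each called inhibitor were sought by the Euclidean distance of log2(FPKM + 1) profiles, centred on the control mean, over the 6 libraries and 10621 other protein-coding genes. This is a description, dominated by the size of the group difference. Nearest to CDKN2B were DAPK2 (distance 0.165), C1S (0.173) and TXNIP (0.179), with log2 differences of 2.14, 2.15 and 2.16. This scale understates the change of low genes. In FPKM their levels with dacomitinib were 8.49, 9.25 and 4.55 times those of controls, against 4.87 times for CDKN2B. Nearest to CDKN1A were MTFR1L (distance 0.0816), PIM1 (0.120) and CTH (0.121). CDKN2C was nearest to PSMC3IP (0.216), NT5DC2 (0.237) and ZGRF1 (0.242), and CDKN2D to EXOC6 (0.0993), LRFN4 (0.120) and CHAMP1 (0.126). CDKN3 had more distant neighbours, UBE2C (0.297), H2AFX (0.302) and ASF1B (0.540), with log2 differences of -3.11, -3.04 and -2.95. In FPKM the controls were 9.62, 8.77 and 9.10 times as high for these, against 12.7 times for CDKN3.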

How the data were processed

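The deposited table holds FPKM made by the authors, for 58735 genes with their coordinates and lengths. The tools listed per the submitters' processing notes are HISAT2, featureCounts, DESeq2 1.20.0, fastp and CASAVA, with build GRCh38 and no stated roles. After multiplication by length, 100% of values were whole multiples of 1 fragment (tolerance 0.01), which gave fragments per gene. The size by which the authors divided each library was 1.07 ± 0.0244 times the fragment sum with dacomitinib and 0.952 ± 0.00449 times in controls (SD, n = 3), so a scaling between libraries was applied before deposit. All 8 genes had the same coordinates in GENCODE release 29. No 2 libraries were duplicates.

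From these values, limma 3.58.1 (R 4.3.3) with a mean-variance trend was fitted, two-sided, to log2(FPKM + 1). It took the 13748 genes whose mean reached 1 FPKM, with Benjamini-Hochberg adjustment over all of them at 0.05. Differences are dacomitinib minus control. On this scale the change of low genes is understated. A fit with voom used the recovered fragments. The fit was also run on simulated data with far fewer changed genes than were called here, which does not measure the error rate in these data. The members and lists were chosen with earlier results of these data known. The rule for named genes takes the 8 members, overlapping and nearest protein-coding genes, up to 2 largest rises and 2 largest falls per list among calls whose libraries do not overlap, the 3 most alike genes per called member, and MKI67 and VIM. Other list genes named (CDK1, CDK2, CDK4, CDK6, CCND1, SKP2 and markers of other cells) were chosen after their values were seen. The same numbers in both groups were not taken to pair the libraries, since no label says that they do. Deviations of same-numbered columns correlated across genes at 0.0267, -0.0158 and 0.0402, which does not exclude shared cultures. A further list of genes is not reported here.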

Additional observations from a re-analysis of the deposited data

How the results depend on the processing

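The calls of CDKN2B, CDKN1A and CDKN3 kept their direction and their side of the threshold under all 18 alternatives, and those of CDKN2C and CDKN2D under the 17 that test them. CDKN2B ranged from 2.14 to 2.57, CDKN1A from 0.74 to 1.21, CDKN2D from -1.03 to -0.64, CDKN2C from -2.85 to -1.63 and CDKN3 from -3.71 to -2.87. The scaling between libraries decided the rest. The difference of CDKN1B turned to 0.24 with TPM, 0.020 with median ratio and 0.17 with quantile normalization, and ranged from -0.17 to 0.0034 when 1 library was left out, above 0 without control replicate 2. CDKN2A became a call with TPM (0.50), median ratio (0.25) and quantile normalization (0.28). The genes called higher were 4 with TPM, against 2 as reported. At a mean of at least 5 FPKM, where CDKN2C and CDKN2D are no longer tested, 1 gene was called lower. Over all genes, higher calls were 5779 with TPM and 1946 at a mean of at least 5 FPKM, and lower calls were 2721 with TPM. With the replicate block 7883 genes differed, against 8271 without it, and no call of the 8 genes changed. CDKN1C could be fitted only without the filter (0.03, adjusted p = 0.463). With 110 and 118 fragments over the dacomitinib libraries, depth limits the precision of CDKN2C and CDKN2D.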
